A study of Mus musculus with 26 samples.

Results

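Mouse neural stem cells that over-expressed MYBtr were compared with cells that over-expressed the control protein eGFP, across all genes and across gene families. The members were chosen by their labels: 3 MYBtr arrays, 1 each from pools 1, 2 and 3, and the 6 eGFP arrays of the same pools, with 2 repeats per pool, which makes 9 of the 26 samples of the series. All cells came from E14.5 wild-type embryos of the C57BL6 strain and received their transgene by lentivirus, so the control cells also carried virus and a foreign protein. What tr means, the promoter of the transgenes, the length of expression and the number of animals in a pool are not given in the labels. Nor do they state that each pool was an independent animal or culture, and the p-values below therefore reflect sample-to-sample spread that may be technical. The same pools also received MYBQKI5, MYBQKI6 (2 forms of a MYB to QKI fusion) or QKItr, with 3 arrays each, and these groups enter below where MYBtr was set directly against them.

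MYB is a transcription factor that binds DNA through repeats at its amino end and is best known for keeping blood progenitors dividing and immature. MYB and its fusion to the RNA-binding protein QKI are known from low-grade gliomas of children. Neural stem cells of the embryonic forebrain divide and can give rise to neurons, astrocytes and oligodendrocytes, and they switch off the genes of one fate as they take on another.

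Values are log2 signals, averaged over the probe sets of a gene (short stretches of a transcript, with a median of 8 per gene), so a difference of 1 is 2-fold. The median probe set read between 5.64 and 5.74 on each of the 9 arrays. Differences are MYBtr minus eGFP, with the 2 eGFP repeats of a pool averaged and the pool as a term in a limma fit of 15 columns. A gene is called when its Benjamini-Hochberg adjusted p over all 23152 genes is under 0.05. Precision is limited by the number of arrays.

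The cells carried the signal of neural stem cells with both transgenes. Sox2, a transcription factor of neural stem cells, ranged from 10.42 to 10.72 with eGFP, with a median of 10.51, and read 10.38, 10.58 and 10.71 with MYBtr in pools 1, 2 and 3. Fabp7, a lipid-binding protein of radial glia, ranged from 10.33 to 11.16 with eGFP and from 10.06 to 11.17 with MYBtr. Neither gene was called, and the 95% confidence intervals of their differences ran from -0.26 to 0.26 and from -0.43 to 0.09. The 2 structural markers went opposite ways: Nes, the intermediate filament nestin, fell by 1.04 on the log2 scale (SE 0.18, limma adjusted p = 0.0032) and Vim, the filament vimentin, rose by 0.51 (SE 0.10, limma adjusted p = 0.0064). Nes read 9.21 to 9.40 on the eGFP arrays and 8.32, 7.77 and 8.66 with MYBtr, and Vim read 10.96 to 11.27 against 11.82, 11.60 and 11.41, with no overlap in either gene. Both calls were lost without the pool term (adjusted p = 0.061 and 0.095). Defining genes of immune and endothelial cells lay below the median gene (5.00) in both groups and that of mature neurons above it, at means of 3.54 and 3.47 for Ptprc (immune cells), 3.69 and 3.58 for Aif1 (microglia), 4.89 and 4.90 for Pecam1 (endothelium) and 6.37 and 6.14 for Rbfox3 (mature neurons), with eGFP first. None of these 4 was called.

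Myb signal was higher with MYBtr in every pool. Myb ranged from 4.07 to 5.29 with eGFP, with a median of 4.48, and read 7.12, 7.36 and 7.23 with MYBtr. On this average over probe sets the MYBtr arrays were alike, whereas the eGFP arrays of pool 3 were the highest of the 6. The difference was 2.82, 2.99 and 2.05 in pools 1, 2 and 3. Single called probe sets were not all so even. The one that rose by 5.14 had an SD over pools of 0.83 with MYBtr and 0.20 with eGFP. The one that rose by 4.85 had 0.17 and 1.645. Of the 18 Myb probe sets, 16 were higher in all 3 pools, and the 7 that were called over all 233753 probe sets rose by 2.94 to 5.72. Where the probe sets lie in Myb is not given in the sources used here, and construct and endogenous Myb were not separated. Qk, the mouse gene for QKI, ranged from 10.53 to 10.99 with eGFP and read 10.39, 10.48 and 10.64 with MYBtr, a difference of -0.28 (95% confidence interval -0.63 to 0.07, limma adjusted p = 0.43).

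With MYBtr, 1383 genes were called, which is 5.97% of those tested: 772 were higher (3.33%) and 611 were lower (2.64%). All 1383 moved the same way in 3 of 3 pools, as did 9108 of all 23152 genes, and a call with the pool term favours such genes. For 954 of the calls (69.0%) the 3 MYBtr arrays did not overlap the 6 eGFP arrays. A call favours such genes, and their share over all genes was not counted, so this does not support the calls. Most changes were small: 1033 of the calls were under 2-fold, 224 genes rose and 126 fell by 2-fold or more, and the median size of a called change was 0.73. The share of genes called was 0.43% in the lowest decile of signal and 11.4% in the highest. In 1188 of the 1383 calls the difference in every pool was larger than the widest gap between 2 eGFP repeats. A call favours such genes as well, and their share over all genes was not counted either. Without the pool term 317 genes were called, all of them among the 1383. Pools differed in size: among called genes the median absolute difference was 0.84 in pool 1, 0.85 in pool 2 and 0.53 in pool 3, and for 971 genes (70.2%) pool 3 had the smallest difference. The count was 1471 without the MYBtr array of pool 3, 640 without that of pool 1 and 566 without that of pool 2, and leaving out the eGFP arrays of pool 1 or 2 gave 713 or 602.

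**Figure D1:**
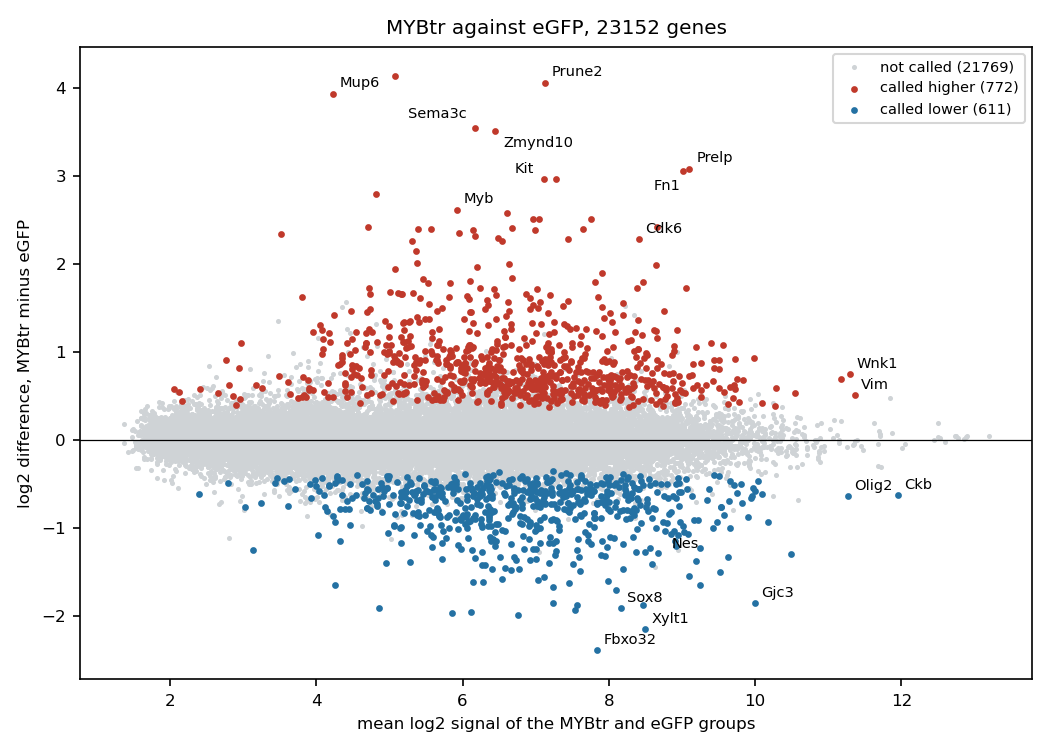
Log2 difference between MYBtr and eGFP (y) against the mean log2 signal of the 2 groups (x) for 23152 genes; each point is 1 gene. Called genes (772 higher in red, 611 lower in blue) spread over the whole range of signal above the dimmest genes, and the most abundant called genes, such as Ckb, Olig2, Vim and Wnk1, differ by less than 1.

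Promoters of the genes with the largest rises are shown because MYB binds DNA with a core of the form AACNG, and 6 of the 12 named largest rises with an entry in the promoter table are printed in order of size. Each runs from 250 bases before to 50 bases after the gene start in RefSeq (GRCm38.p6), 5′ to 3′ on the gene's strand, and capitals mark every AACNG or its reverse complement. Prune2, at chr19:16955868-16956167 (+), encodes a protein with a BCH domain, Mup6, at chr4:60003231-60003530 (+), a major urinary protein, and Sema3c, at chr5:17574566-17574865 (+), a secreted semaphorin that guides axons. Zmynd10, at chr9:107547054-107547353 (+), encodes an assembly factor of the dynein arms of motile cilia, Prelp, at chr1:133921352-133921651 (-), a leucine-rich proteoglycan of the matrix, and Irgm2, at chr11:58214727-58215026 (+), an interferon-induced GTPase.
Prune2: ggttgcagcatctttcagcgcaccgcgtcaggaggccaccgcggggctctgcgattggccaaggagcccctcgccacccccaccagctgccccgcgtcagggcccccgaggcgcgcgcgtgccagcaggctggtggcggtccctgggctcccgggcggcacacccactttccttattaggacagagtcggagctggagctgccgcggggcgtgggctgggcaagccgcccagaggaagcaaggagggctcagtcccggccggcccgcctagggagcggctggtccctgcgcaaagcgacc
Mup6: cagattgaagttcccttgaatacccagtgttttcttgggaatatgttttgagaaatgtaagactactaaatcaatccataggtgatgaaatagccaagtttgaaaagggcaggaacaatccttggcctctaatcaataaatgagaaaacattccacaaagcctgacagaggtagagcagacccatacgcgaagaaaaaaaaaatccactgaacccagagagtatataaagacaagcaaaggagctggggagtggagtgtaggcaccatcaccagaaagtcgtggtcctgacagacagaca
Sema3c: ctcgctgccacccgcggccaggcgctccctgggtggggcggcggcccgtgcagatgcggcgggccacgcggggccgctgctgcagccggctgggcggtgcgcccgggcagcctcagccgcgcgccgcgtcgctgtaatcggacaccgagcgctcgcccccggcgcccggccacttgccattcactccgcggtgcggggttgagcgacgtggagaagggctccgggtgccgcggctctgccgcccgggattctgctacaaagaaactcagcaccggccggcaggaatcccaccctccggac
Zmynd10: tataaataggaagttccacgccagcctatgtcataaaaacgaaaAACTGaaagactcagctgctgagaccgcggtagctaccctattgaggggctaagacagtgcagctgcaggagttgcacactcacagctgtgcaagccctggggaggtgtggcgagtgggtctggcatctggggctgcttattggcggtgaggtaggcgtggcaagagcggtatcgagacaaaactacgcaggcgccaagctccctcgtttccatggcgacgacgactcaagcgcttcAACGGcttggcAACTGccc
Prelp: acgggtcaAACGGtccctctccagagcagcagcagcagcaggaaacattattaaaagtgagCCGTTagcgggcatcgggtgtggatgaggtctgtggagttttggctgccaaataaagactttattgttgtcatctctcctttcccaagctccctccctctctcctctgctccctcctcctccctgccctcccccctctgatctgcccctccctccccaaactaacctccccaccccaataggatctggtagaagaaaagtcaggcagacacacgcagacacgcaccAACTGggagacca
Irgm2: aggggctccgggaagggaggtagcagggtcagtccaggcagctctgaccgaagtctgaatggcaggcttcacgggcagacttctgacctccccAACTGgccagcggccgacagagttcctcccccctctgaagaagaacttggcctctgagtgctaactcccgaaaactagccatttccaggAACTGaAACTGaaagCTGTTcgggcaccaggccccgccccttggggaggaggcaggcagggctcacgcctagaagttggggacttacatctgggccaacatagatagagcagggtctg

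The promoters of Prune2, Mup6 and Sema3c held no AACNG on either strand in this window, those of Zmynd10 and Prelp held 3 and that of Irgm2 held 4. AACNG is short and common: 79.3% of the 17713 tested genes with a promoter held it, against 81.4% of 601 genes called higher and 76.0% of 488 called lower. Longer forms that contain it were less frequent among genes called lower. TAACNG stood in 24.6% of the promoters of genes called higher, 11.7% of those called lower and 21.5% of all, and CAACNG stood in 41.8%, 27.7% and 33.9%. AACTG, a form of AACNG that overlaps both, stood in 40.8%, 36.7% and 42.3%. Median GC content was 61.7% for genes called higher, 62.7% for those called lower and 56.7% for all. These shares were not tested, and no binding was measured.

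The largest rises included a guidance cue, a cilium assembly factor, a receptor kinase and 3 matrix proteins. Prune2 ranged from 4.57 to 5.48 with eGFP (median 5.13) and read 9.56, 9.30 and 8.61 with MYBtr, a rise of 4.06 (SE 0.22, 16.7-fold, limma adjusted p = 5.3e-07). Zmynd10 ranged from 4.29 to 5.48 (median 4.39) and read 8.19, 8.40 and 8.04, a rise of 3.52 (SE 0.27, 11.4-fold, limma adjusted p = 2.0e-05). Both read lowest in pool 3 with MYBtr, at 8.61 and 8.04, but every MYBtr array lay far above every eGFP array. Sema3c varied more between pools. It ranged from 3.82 to 4.93 with eGFP (median 4.50) and read 9.79, 8.89 and 5.14 with MYBtr, so its difference was 5.11, 4.26 and 1.27. Mup6 likewise read 8.28, 5.84 and 4.49 against 1.86 to 3.14 (median 2.16). Both rises fell off in pool 3 but stayed above all eGFP arrays, and Sema3c was not called without the pool term (adjusted p = 0.11). Mup6, Sema3c and Zmynd10 lay below the median gene with eGFP and passed the rule for naming only through their level with MYBtr. Mup6 rests on 3 probe sets, and urinary protein genes are near-identical copies whose signals the array may not separate. Mup13, on 2 probe sets, also rose by 2.34, and the other 9 of the 11 Mup genes were not called.

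Prelp ranged from 6.89 to 7.98 with eGFP (median 7.70) and read 11.05, 10.53 and 10.32 with MYBtr, a rise of 3.08 (SE 0.30, 8.47-fold, limma adjusted p = 6.1e-05). Fn1, which encodes fibronectin, ranged from 6.25 to 8.22 (median 8.01) and read 10.49, 10.99 and 10.14, with all 41 probe sets higher in 3 pools (a rise of 3.05, SE 0.37, limma adjusted p = 4.6e-04). Fras1, a protein that anchors basement membranes, ranged from 5.37 to 6.05 (median 5.72) and read 8.69, 8.01 and 7.94. In Fn1 the pools differed with eGFP, where pool 1 read 6.33 and 6.25 and the other pools 7.98 to 8.22, and lay closer together with MYBtr. Kit, the receptor of stem cell factor and a described MYB target, ranged from 4.91 to 6.39 (median 5.64) and read 8.38, 8.66 and 8.75 (a rise of 2.96, SE 0.18, limma adjusted p = 1.6e-06). Its MYBtr arrays lay above 8 in every pool while its eGFP level was lowest in pool 1 and highest in pool 3. Abca9, a lipid transporter of the ABC family, rose by 2.79 (pools 3.86, 3.06 and 1.45) and Frat2, a GSK3-binding activator of Wnt signalling, by 2.58 (pools 3.26, 2.94 and 1.55). Irgm2 read 9.73, 9.69 and 6.89 against 5.93 and 5.82, 6.69 and 6.69, and 4.74 and 4.93 in the same pools. Its groups did not overlap, though the MYBtr array of pool 3 lay only just above the eGFP arrays of pool 2, and the call was lost without the pool term (adjusted p = 0.087).

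The largest falls included several genes of glia. Fbxo32, a ubiquitin ligase known from muscle atrophy and a FoxO target, ranged from 8.61 to 9.62 with eGFP (median 8.90) and read 6.74, 6.10 and 7.10 with MYBtr, a difference of -2.40 (SE 0.22, limma adjusted p = 4.3e-05). Xylt1, the enzyme that starts chondroitin and heparan sulphate chains, ranged from 9.29 to 9.75 (median 9.68) and read 6.55, 7.14 and 8.56 (-2.16, SE 0.30). Gjc3, a connexin of glia, ranged from 10.88 to 10.98 (median 10.93) and read 9.34, 8.42 and 9.45 (-1.86, SE 0.20). Gjc3 was the most even gene of these with eGFP. Sox8, a SoxE factor of the oligodendrocyte lineage, ranged from 8.79 to 9.38 (median 9.14) and read 6.36, 7.17 and 8.08 (-1.91, SE 0.27, limma adjusted p = 0.0011). Ttyh1, a membrane protein of neural progenitors and astrocytes, ranged from 8.35 to 8.65 and read 6.10, 6.40 and 7.20 (-1.94), and Cyp2j9, a P450 of arachidonic acid metabolism, ranged from 6.40 to 7.03 and read 4.40, 4.75 and 5.45 (-1.97). In Xylt1, Sox8, Ttyh1 and Cyp2j9 pool 1 was lowest and pool 3 highest with MYBtr, and no MYBtr array reached an eGFP array. The remaining named falls depended on the pool term, apart from Fos, which is described with the early genes. Agt, angiotensinogen (-1.99), Rnase1, a secreted ribonuclease (-1.92), Kcnj10, the inward rectifier potassium channel of astrocytes (-1.88), Smoc1, a calcium-binding matrix protein (-1.88), and Adcyap1r1, the receptor of PACAP (-1.71), were called with the pool term and not without it (adjusted p = 0.19, 0.14, 0.19, 0.14 and 0.36). Kcnj10 read 9.79 and 9.65 with eGFP in pool 1 but 7.74 to 8.02 in the other pools.

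**Figure D2:**
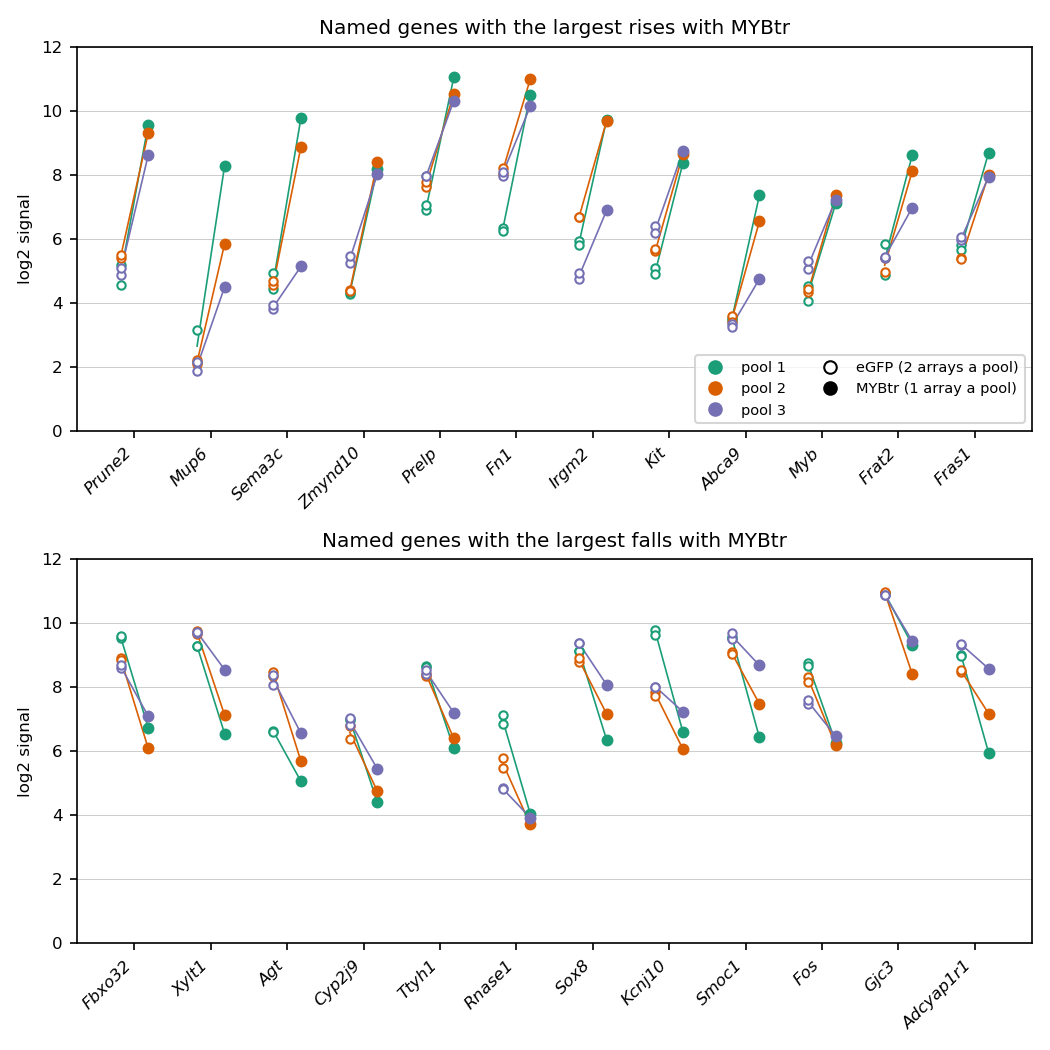
Log2 signal (y) of the 12 largest named rises (top) and 12 largest named falls (bottom) on each array: open circles are the 6 eGFP arrays, filled circles the 3 MYBtr arrays, colours mark pools and lines join the eGFP mean of a pool to its MYBtr array. Every line slopes the same way within a gene, which was a condition for naming these genes. The line of pool 3 is the shortest for Sema3c, Mup6 and Abca9 and for others such as Frat2, as in 70.2% of all calls.

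The most abundant genes called with changes under 2-fold were also followed. Wnk1, a kinase that controls ion cotransport, ranged from 10.73 to 11.05 with eGFP (median 11.01) and read 11.84, 11.54 and 11.64 with MYBtr (0.74, SE 0.13, limma adjusted p = 0.0041). Lgals1, the sugar-binding protein galectin-1, ranged from 10.74 to 11.00 and read 11.84, 11.37 and 11.36 (0.69, SE 0.14). Both were higher on each MYBtr array than on any eGFP array. Tjp1, a scaffold of tight junctions, rose by 0.59, Mt2, a metallothionein, by 0.92, Cd164, a sialomucin, by 0.42, Necap2, an endocytosis protein, by 0.68 and Trip12, a ubiquitin ligase, by 0.39. Ckb, brain creatine kinase, ranged from 12.15 to 12.34 with eGFP (median 12.27) and read 11.38, 11.48 and 12.06 (-0.63, SE 0.15, limma adjusted p = 0.027). Olig2, a bHLH factor of the oligodendrocyte lineage, ranged from 11.45 to 11.75 and read 10.91, 10.95 and 11.00 (-0.64, SE 0.15). Olig2 was thus lower with nearly no spread between pools, whereas Ckb in pool 3 lay close to its eGFP level. Further falls among abundant genes were -0.93 for Trp53i11, -0.64 for Traf4, a TRAF adaptor, -0.62 for Maged1, -0.58 for Mat2a, which makes S-adenosylmethionine, -0.55 for Tle5, a Groucho-type corepressor, and -0.47 for the kinase Plk2. Of these genes, Wnk1 and Lgals1 were also called without the pool term.

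Gene lists and families were then counted, beside the 5.97% called over all genes. Most lists hold bright genes, and among the 11894 genes above the median gene in either group the share called was 10.7%. Of 92 sets, 34 had over 15% of their measured members called and 12 had none. Members of a set are not independent, and sets overlap. The lists were chosen with earlier results of these data known, so the shares below are a description and not a test of enrichment. In bulk RNA, fewer cells of a type and less RNA per cell cannot be told apart.

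The choice of probe set mattered for many genes named below and above. Of 229 called genes followed by name, 42 shrank by over 1.5 times or changed sign when the brightest probe set stood for the gene, and 1 of the 42 (Lef1, 0.70) was still called. Among the largest and most abundant changes, Abca9 then differed by 1.43, Lgals1 by 0.36, Ckb by -0.061, Trp53i11 by -0.46 and Maged1 by -0.31. Among early genes, receptors and growth factors, the values were -0.27 for Nr4a1, -0.048 for Egr2, -0.018 for Nr4a2, -0.22 for Egfr, -0.50 for Epha5, -0.30 for Tyro3, -0.10 for Fgf1 and -0.026 for Tgfa. Among pathway genes they were 0.37 for Wif1, 0.23 for Sfrp1, -0.21 for Tcf7l1, 0.19 for Dll4 and 0.23 for Ifi35. Among adhesion, matrix and guidance genes they were -0.15 for Itga4, 0.38 for Frem2, -0.44 for Adamts12, 0.33 for Efnb2, -0.43 for Nrxn2, -0.49 for Ncam2 and -0.34 for Cdh11. The others were 0.56 for Trf, -0.18 for Enpp2, 0.36 for Dnah12, -0.40 for Kcnd3 and -0.53 for Gadd45b, and those that changed sign are given with the gene.

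**Figure D3:**
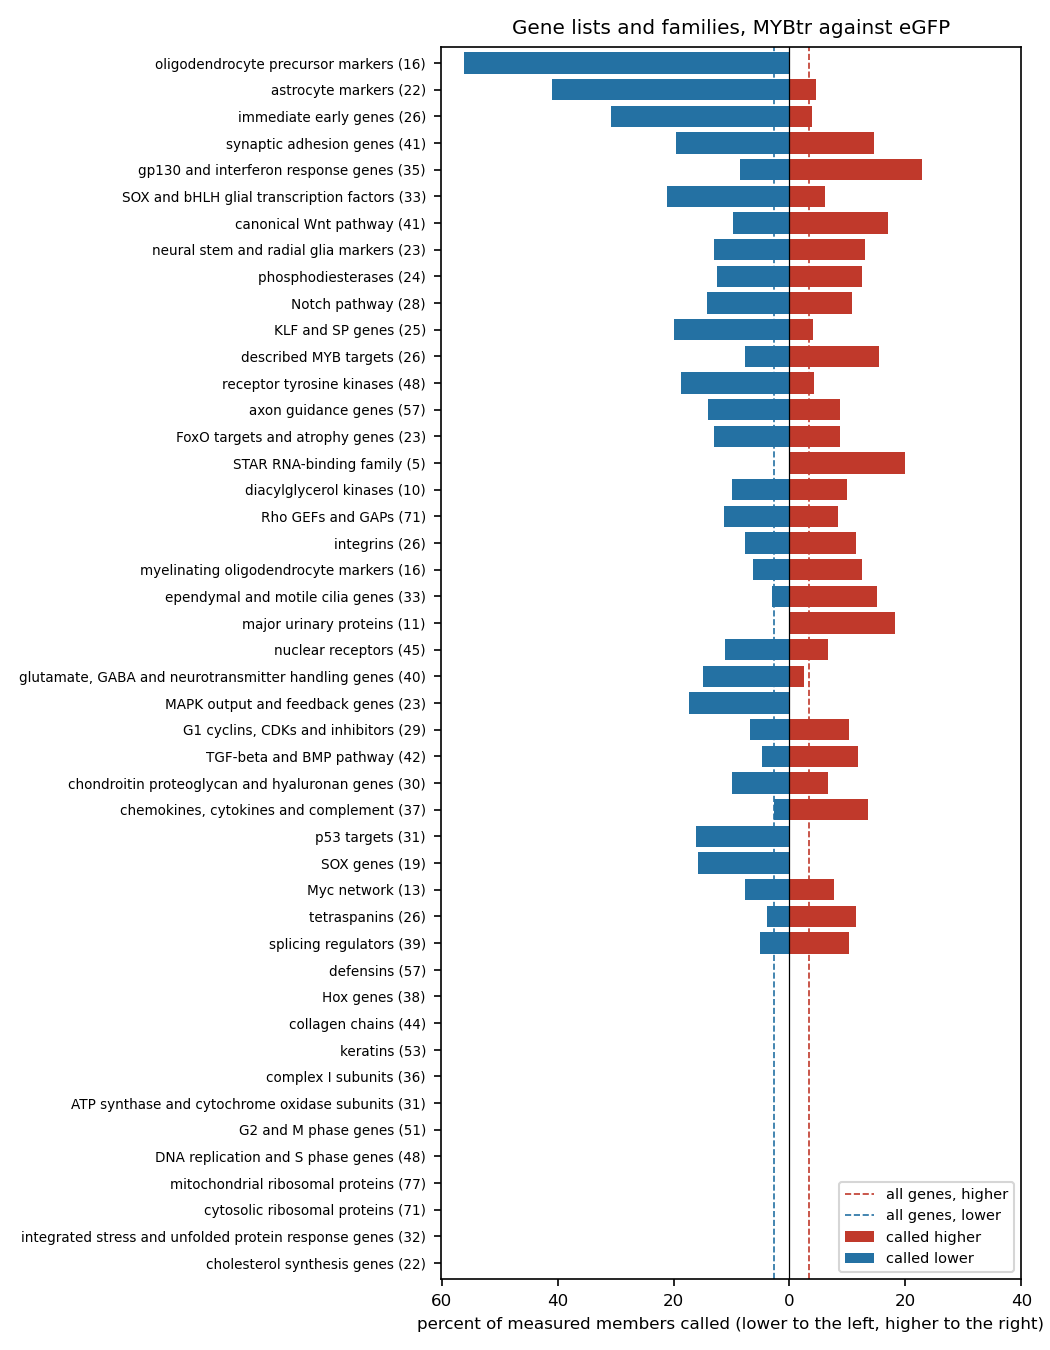
Percent of measured members called higher (red, to the right) or lower (blue, to the left) for the 34 sets with over 15% called and the 12 sets with none called, with the number measured in brackets; dashed lines mark the 3.33% and 2.64% over all genes. Oligodendrocyte precursor markers (56.3% called, all lower) and astrocyte markers (45.5%) stand at the top.

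Markers of oligodendrocyte precursors and astrocytes were mostly lower where called. Of 16 oligodendrocyte precursor markers, 9 fell and none rose, with a median difference of -0.61 over the list against -0.01 over all genes and pool medians of -0.77, -0.60 and -0.51. Besides Sox8 and Olig2 these were Ednrb, an endothelin receptor (-1.61), Cspg4, the proteoglycan NG2 (-1.34), Olig1 (-1.29), Cspg5 (-1.29), Pcdh15 (-1.09), Sox6 (-0.58) and 1 more. Olig1 ranged from 11.00 to 11.26 with eGFP and read 9.06, 9.82 and 10.64 with MYBtr. The falls were thus deepest in pool 1. Pdgfra, the receptor that defines the precursor state, did not follow: it read 5.57 to 6.62 with eGFP and 7.35, 7.04 and 6.29 with MYBtr, a difference of 0.73 that was not called (95% confidence interval 0.27 to 1.19, limma adjusted p = 0.063). Of the 9 calls, 3 (Sox8, Ednrb and Cspg4) were also made without the pool term.

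Of 22 astrocyte markers, 9 fell and 1 rose, with a median of -0.51. Hepacam, an adhesion protein of astrocytes, ranged from 9.69 to 10.44 with eGFP (median 10.08) and read 7.73, 8.49 and 9.06 (-1.65, SE 0.32, limma adjusted p = 0.0076). Gfap, the astrocyte filament, ranged from 5.25 to 6.66 (median 6.09) and read 4.59, 4.52 and 4.66 (-1.40, SE 0.25, limma adjusted p = 0.0052). Gfap read nearly the same in all pools with MYBtr from unequal levels with eGFP. These MYBtr readings lay below the median gene (5.00), and whether they mark the floor of the signal was not tested. S100b (-0.99), the water channel Aqp4 (-0.97), Fgfr3 (-0.87), Apoe (-0.82) and Sox9 (-0.51) were also lower. Slc4a4, a bicarbonate transporter, was the one that rose, by 0.76. The glycolytic enzyme Aldoc and the GABA transporter Slc6a11 had differences of -1.25 and -1.45 that were not called (adjusted p = 0.091 and 0.10). Slc6a11 read 6.05, 7.99 and 9.70 with MYBtr against 8.60 to 10.03, so its pools spread widely. Without the pool term, 4 of the 10 calls were made.

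Lists of neuron, immune, vascular, fibroblast and myelin markers held between 1 and 3 calls each. The shares called were 7.41%, 6.25%, 5.56%, 11.1% and 18.75% in that order, beside 5.97% over all genes. Neuron markers had 1 rise (Cd24a, 0.60) and 1 fall (Gad1, which makes GABA, -0.77) of 27. Immune markers had 1 fall of 16, Cd68 (-1.15), which is a lysosomal protein. Vascular markers had 1 fall of 18, Cspg4, which pericytes share with oligodendrocyte precursors. Fibroblast markers had Fn1 higher and Fbln2, a fibulin of the matrix, lower (-0.88) of 18. Myelin markers had 2 rises, Cnp (0.79) and Trf, transferrin (0.95), and 1 fall, Enpp2 (-0.72), of 16. In the list of 23 neural stem and radial glia markers, 3 rose and 3 fell (26.1%). Gli3, a Hedgehog transcription factor, ranged from 5.48 to 5.78 with eGFP and read 8.13, 7.36 and 6.38 (1.71, SE 0.32, limma adjusted p = 0.0062), and Hmga2, a chromatin protein of young progenitors, rose by 0.69 beside Vim. Beside Nes, the receptor Egfr (-0.67) and the Notch target Hes1 (-0.60) fell. Levels of the bright stem cell genes Ptprz1 and Slc1a3 differed by -0.07 and 0.27 and were not called.

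Motile cilia genes rose in part. Of 33 listed, 5 rose and 1 fell: beside Zmynd10, Rsph1 of the radial spoke rose by 1.40, Ccdc39 of the dynein ruler by 1.34, Tekt4, a tektin, by 0.96, and Rfx3, a transcription factor of ciliary genes, by 0.54. Foxj1, the factor that switches on motile cilia genes, fell (-0.65). Of 20 axonemal dyneins, 1 rose (Dnah12, 0.56), so 18.2% and 5.0% of the 2 sets were called. Rsph1 and Tekt4 levels stayed low with MYBtr, at 5.77, 6.40 and 6.06 and at 4.62, 5.26 and 4.64.

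Interferon response genes were among the rises and genes of the gp130 pathway among the falls. In the shared list of 35 genes, 8 rose and 3 fell, and the median was 0.46 (pools 0.32, 0.57 and 0.36). Ifih1, the RNA sensor MDA5, read 8.25 and 8.38, 8.46 and 8.42, and 6.13 and 6.30 with eGFP in pools 1, 2 and 3, and 10.74, 9.96 and 8.23 with MYBtr (1.99, SE 0.36, limma adjusted p = 0.0053). Its MYBtr level in pool 3 thus equalled the eGFP level of the other pools, and the groups overlapped. The transcription factors Stat2 (1.36) and Irf7 (1.33), the antiviral proteins Rsad2 (1.18) and Oas2 (0.87), and Ifi35 (0.84) likewise read lowest in pool 3 with MYBtr, and 2 more genes rose. Oas2 changed sign when its brightest probe set stood for the gene (-0.078). None of these 8 was called without the pool term (adjusted p = 0.068 for Stat2 and 0.31 to 0.73 for the other 5 named). Ifi44 had a difference of 0.99 that was not called (adjusted p = 0.34).

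Chemokines also differed between pools. Ccl5, a T-cell attractant, read 7.90 and 7.74, 9.00 and 8.96, and 5.88 and 5.96 with eGFP and 11.03, 10.14 and 6.94 with MYBtr (1.79, SE 0.41, limma adjusted p = 0.018), and Cxcl10 rose by 1.65. Neither was called without the pool term (adjusted p = 0.78 and 0.63). In the list of 37 chemokines, cytokines and complement genes, 5 rose and 1 fell (16.2%). Tnfaip6, a hyaluronan-binding protein (2.28), Ackr3, a scavenger receptor of CXCL12 (1.73), and Serping1, the C1 inhibitor (1.45), were the other rises, and the death receptor Tnfrsf21 (-1.23) fell. Tnfaip6 read 8.96, 8.67 and 8.12 against 5.78 to 6.92 and was called without the pool term too.

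Of the gp130 genes, Stat3, the factor that these receptors activate, ranged from 10.01 to 10.27 with eGFP (median 10.16) and read 8.96, 8.95 and 9.58 (-1.002, SE 0.17, limma adjusted p = 0.0032), with 24 of 25 probe sets lower in 3 pools. The LIF receptor Lifr (-1.25) and the CNTF receptor Cntfr (-0.66) fell too. The shared chain Il6st and the kinase Jak2 differed by -0.37 and 0.04 and were not called. Stat3 and Lifr were called without the pool term, and in these genes the eGFP pools lay close together. By its brightest probe set, Stat3 differed by -0.29 and was not called.

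**Figure D4:**
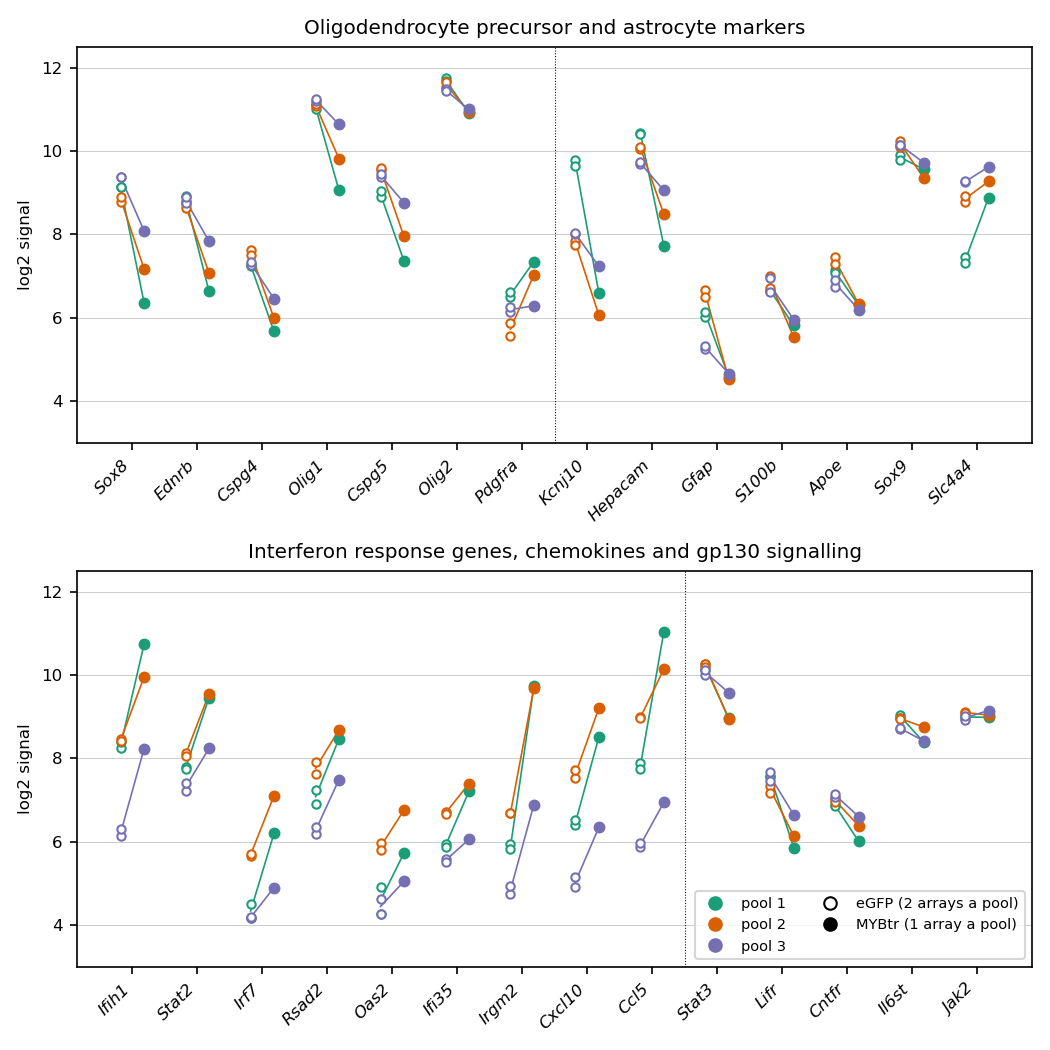
Log2 signal (y) on each array for glial markers (top, precursor markers left and astrocyte markers right of the dotted line) and for interferon, chemokine and gp130 genes (bottom, gp130 genes right of the dotted line); open circles are eGFP, filled circles MYBtr, colours mark pools. Interferon genes and chemokines rise in each pool from eGFP levels that differ between pools, while Stat3 and Lifr fall from even levels.

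Early response genes and MAPK feedback genes were lower where called, with 1 exception. Of 26 immediate early genes, 8 fell and 1 rose (34.6% called, median -0.31), with 2 called without the pool term. Fos ranged from 7.49 to 8.75 with eGFP (median 8.26) and read 6.26, 6.18 and 6.47 (-1.86, SE 0.29, limma adjusted p = 0.0021). The nuclear receptor Nr4a1 ranged from 6.70 to 7.84 and read 5.85, 5.77 and 5.91 (-1.33). Both reached one level in all pools with MYBtr from eGFP levels that were highest in pool 1. Egr2 (-0.88), the antiproliferative gene Btg2 (-0.77), Nr4a2 (-0.57), Klf4 (-0.55) and 2 more fell. Atf3, a stress-induced partner of AP-1, was the exception, with 8.81, 8.50 and 7.35 against 7.97 and 7.97, 7.39 and 7.30, and 6.12 and 6.32 in the same pools (1.04, SE 0.21, limma adjusted p = 0.0093, and 0.58 without the pool term). Jun differed by -0.19 and was not called. Of 23 MAPK output and feedback genes, 4 fell and none rose: the adaptor Shc4 (-1.68), the receptor feedback inhibitors Spry1 (-1.09) and Spry4 (-0.78), and the ERK phosphatase Dusp7 (-0.79). Etv5 and Dusp6, often used as ERK readouts, differed by 0.04 and 0.20 and were not called. Of 25 KLF and SP factors 5 fell, among them Klf15 (-0.89) and Klf3 (-0.72), and Klf9, a glucocorticoid-induced member, rose (0.69).

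Called receptor kinases were mostly lower, while Kit and its ligand were both higher. Of 48 receptor tyrosine kinases, 9 fell and 2 rose (22.9%). Beside Kit, Erbb2 rose by 0.83, evenly in pools 1, 2 and 3 (0.83, 0.86 and 0.79). The falls included the collagen receptor Ddr1 (-1.01), Fgfr3, the neurotrophin receptor Ntrk3 (-0.78), Epha5 (-0.78), Egfr and Tyro3 (-0.62). Of 40 growth factors, Kitl, which encodes stem cell factor, ranged from 7.16 to 8.32 with eGFP (median 8.06) and read 8.58, 9.42 and 9.14 (1.20, SE 0.17, limma adjusted p = 0.0011, and 0.068 without the pool term). Fgf5 rose by 1.10 but read -0.41 by its brightest probe set, and Fgf1 (-1.48), the EGFR ligand Tgfa (-0.65) and Pdgfc (-0.55) fell. Of 8 MYB family genes only Myb itself was called, and of 5 STAR genes, the family of Qk, Khdrbs3 rose (0.78).

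Signalling pathways were mixed in direction. In canonical Wnt signalling 7 of 41 genes rose and 4 fell: with Frat2, the transcription factor Lef1 (1.08), the secreted antagonists Wif1 (1.02) and Sfrp1 (0.86), Dact1 (0.60) and 2 more rose, while the feedback targets Axin2 (-0.79) and Nkd1 (-0.78), Fzd9 (-0.56) and Tcf7l1 (-0.42) fell. Lef1 ranged from 5.32 to 5.70 with eGFP and read 6.83, 6.92 and 6.12, and Axin2 ranged from 7.40 to 8.14 and read 6.59, 6.85 and 7.52. Activators, inhibitors and targets of the pathway thus stood on both sides, and beta-catenin itself (Ctnnb1) differed by 0.07. In the Notch pathway 3 of 28 rose, the ligand Dll4 (1.18), Notch3 (0.70) and Dtx4 (0.58), and 4 fell, the ligands Jag1 (-0.99) and Dll1 (-0.61), the glycosyltransferase Lfng (-0.71) and Hes1. Notch1 differed by -0.72 (adjusted p = 0.061) and was not called. In the TGF-beta and BMP pathway 5 of 42 rose, among them Tgfb1 (0.68), Tgfb2 (0.69), Ltbp1 (0.86) and Smad1 (0.56), and 2 fell, the BMP target Id1 (-0.83) and the receptor Bmpr1b (-0.72). The shares called were 26.8% for the Wnt list, 25% for Notch and 16.7% for TGF-beta and BMP. None of the Notch and TGF-beta calls was made without the pool term.

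Adhesion and matrix genes changed in both directions. Of 26 integrins, Itga5, the alpha chain of the fibronectin receptor, ranged from 5.69 to 6.65 with eGFP (median 6.01) and read 7.59, 7.96 and 7.64, with all 19 probe sets higher in 3 pools (1.61, SE 0.21, limma adjusted p = 8.2e-04). Itga3 and Itga9 rose by 0.74 each, while Itgb8, which activates TGF-beta, ranged from 8.76 to 9.48 and read 7.42, 7.73 and 8.42 (-1.27, SE 0.21), and Itga4 fell (-0.58). The common chains Itgav and Itgb1 differed by -0.26 and -0.23 and were not called. Itga3 and Itga9 changed sign when the brightest probe set stood for the gene (-0.16 and -0.070). In the basement membrane list 3 of 36 rose, Fn1, Fras1 and its partner Frem2 (0.60), and 2 fell, Smoc1 and Fbln2 (13.9% called). None of 44 collagen chains was called, and their median was -0.07. Of 39 matrix proteases and inhibitors 5 fell and none rose (12.8%, near the 10.7% among genes above the median gene). The falls were those of the aggrecanase-type protease Adamts9 (-1.57), Adamts12 (-0.80), Mmp15 (-1.02), Mmp2 (-0.75) and the inhibitor Timp2 (-0.57). None of these 5 was called without the pool term. Chondroitin genes held Xylt1, Cspg4 and Cspg5 lower, and Chsy1, which extends the chain, higher (0.96).

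Axon guidance and synaptic adhesion genes also changed in both directions. Of 57 guidance genes 5 rose and 8 fell (22.8%). With Sema3c, its receptor Nrp1 (1.23) and the ephrins Efna5 (0.91) and Efnb2 (0.86) rose, while the plexins Plxna2 (-1.24, SE 0.11, limma adjusted p = 3.8e-05) and Plxnb3 (-1.41) and the Slit receptors Robo1 (-0.74) and Robo2 (-0.76) fell. Plxna2 was among the evenest changes, with pool differences of -1.17, -1.49 and -1.06. Of 41 synaptic adhesion genes 6 rose and 8 fell (34.1%): Slitrk1 (1.46), Nrxn3 (0.88) and Cadm1 (0.87) were higher, and Cntn1 (-1.41), Nrxn2 (-1.11), the neurexin ligand Nxph1 (-0.96), Cadm4 (-0.89) and Ncam2 (-0.75) lower. Members of one family thus moved apart, Nrxn3 from Nrxn2 and Cadm1 from Cadm4. Of 94 cadherins and protocadherins, 7 were higher and 5 lower (12.8%). That share is near the 10.7% among genes above the median gene, with 5.97% over all genes. Pcdh7 (1.72), Pcdh18 (1.26), Pcdh19 (0.94) and N-cadherin, Cdh2 (0.58), rose, and Cdh10 (-1.10), Pcdh9 (-1.02) and Cdh11 (-0.99) fell.

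Of 40 genes of glutamate, GABA and other transmitters, 6 fell and 1 rose (17.5%). The metabotropic glutamate receptor Grm5 read 6.05 and 6.29, 7.19 and 7.23, and 7.91 and 7.87 with eGFP in pools 1, 2 and 3, and 4.16, 5.22 and 7.01 with MYBtr (-1.62, SE 0.26, limma adjusted p = 0.0026). Grm3 followed the same order of pools (-1.35), and neither was called without the pool term (adjusted p = 0.52 and 0.80). The groups overlapped in both genes, with pool 3 highest under either transgene. Gria2 (-0.83), Gabra2 (-0.82, but 0.12 by its brightest probe set) and Grin3a (-0.77) also fell, and Grm4 rose (0.92, but 0.0057 by its brightest probe set). Of 91 potassium channel genes 5 fell and 2 rose (7.69%, near the share over all genes), with the calcium-activated Kcnma1 (-1.58), Kcnc1 (-0.90) and Kcnd3 (-0.69) next to Kcnj10, and Kcnh7 higher (1.49). Of 94 adhesion and orphan G-protein receptors 6 fell and none rose (6.38%, also near that share), with Adgrg1, which is needed for cortical development, at -1.55. Of 58 sodium and calcium channel genes 1 rose and 1 fell (3.45%). Of 387 solute carriers 13 rose and 15 fell (7.24%), among them the cystine transporter Slc7a11 (1.12) and the vesicular glutamate transporter Slc17a8 (1.30, but -0.24 by its brightest probe set) higher and the fatty acid transporter Slc27a1 (-1.47) and the glutamine transporter Slc38a3 (-1.31) lower.

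Cell cycle genes were called in the G1 list and in neither of the later ones. Cdk6, a kinase of the G1 phase and a described MYB target, ranged from 6.85 to 7.58 with eGFP (median 7.37) and read 9.74, 9.61 and 9.31 (2.28, SE 0.20, limma adjusted p = 3.2e-05). Of 29 G1 genes (17.2% called), Tfdp2 (0.61) and the inhibitor Cdkn1b (0.47) rose as well, and Ccnd3 (-0.55) and Cdc25a (-0.54) fell. The abundant cyclins Ccnd1 and Ccnd2 differed by -0.13 and -0.02 and were not called. None of 48 S phase genes was called (median 0.03), nor any of 51 G2 and M phase genes (median 0.21, 41 of 51 above 0), whose pool medians were 0.19, 0.51 and -0.05. Pcna, the replication clamp, differed by 0.14 (95% confidence interval -0.10 to 0.38). Of 31 p53 targets, of which 28 lay above the median gene, 5 fell and none rose (16.1%). These were Gadd45b (-0.85), Btg2, Trp53inp1 (-0.52), Phlda3 (-0.51) and Plk2, while Cdkn1a differed by -0.26 and was not called.

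Described MYB targets were called in both directions. Of 26, 4 rose and 2 fell, with a median of -0.02: Kit, Cdk6, the survival gene Bcl2 (0.86) and adenosine deaminase, Ada (0.77), were higher, and Myc (-0.93) and Mat2a were lower. Myc ranged from 9.14 to 9.29 with eGFP (median 9.20) and read 8.43, 7.80 and 8.60. It was lower on every MYBtr array, and Mxd1, which competes with Myc for Max, rose (0.86). Ezh2, the methyltransferase of Polycomb, was the only one of 31 Polycomb, BAF and DNA methylation genes called: it ranged from 7.62 to 8.66 with eGFP (median 7.79) and read 9.21, 9.13 and 9.48 (1.24, SE 0.18, limma adjusted p = 0.0014). Ada changed sign when the brightest probe set stood for the gene (-0.21).

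Lipid mediators and signalling enzymes showed a few large changes. Of 32 prostaglandin and eicosanoid genes, Ptgds, a prostaglandin D synthase (-1.63), Pla2g7 (-1.41) and Cyp2j9 fell and the PGE2 receptor Ptger4 rose (1.02), and all 4 were also called without the pool term. By the brightest probe set, Ptgds differed by only -0.18, and neither Ptgds nor Ptger4 was called. Among 10 diacylglycerol kinases, which end diacylglycerol signals, Dgkg rose by 2.42 and Dgki fell (-0.76). Of 24 phosphodiesterases, which break down cyclic nucleotides, 3 rose, with Pde3b at 1.31 and Pde9a at 1.00, and 3 fell, with Pde2a at -0.96. The FoxO list of 23 held Fbxo32, Klf15 and the repressor Bcl6 (-0.88) lower and Cited2 (1.07) and Cdkn1b higher. In the cytoskeleton, tropomodulins moved apart, Tmod1 by 1.83 and Tmod2 by -1.04, the kinesin Kif26b rose by 2.32, Actn1 rose by 0.89 and Tubb2a fell (-1.08). These are single genes. The shares called were 9.52% of 42 kinesins, 10.2% of 49 actomyosin genes and 4.76% of 21 tubulins. None exceeded the 10.7% among genes above the median gene. Of 39 splicing regulators, 4 rose by 0.39 to 0.55 (Tra2b, Tra2a, Rbfox2 and Srsf7) and the neuronal regulators Nova1 (-1.07) and Ptbp2 (-0.79) fell, none of them called without the pool term.

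Several housekeeping families held no calls. None of 71 cytosolic ribosomal proteins (median -0.06), 77 mitochondrial ribosomal proteins (median 0.02), 36 subunits of complex I (median -0.07), 31 of ATP synthase and cytochrome oxidase (median -0.08), 32 stress response genes (median 0.08) or 22 cholesterol synthesis genes (median -0.24) was called in limma. The last had pool medians of -0.63, 0.02 and -0.12, and Hmgcs1 differed by -0.80 with an adjusted p of 0.17. The median SE over all genes was 0.14. Other such families held a few, with 2 of 39 proteasome subunits and 1 of 27 glycolysis genes higher and 1 of 21 tubulins lower. Actb, cytoplasmic actin, differed by -0.11 (95% confidence interval -0.31 to 0.10). Among families that these cells are not known to use, the major urinary proteins held 2 calls of 11 (18.2%), whereas there were 8 of 1084 olfactory receptors (0.738%), 2 of 288 vomeronasal receptors (0.694%) and calls in none of 38 Hox genes, 53 keratins and 57 defensins. All these families were dim, with median eGFP signals from 2.43 (vomeronasal receptors) to 4.30 (Hox genes). Few genes so dim were called at all, with 0.43% in the lowest decile of signal.

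MYBtr was also set directly against the other constructs in the same pools, in the fit that also holds the eGFP columns in its pool terms and its estimate of the spread. Against QKItr, 2064 genes were called (8.91%), 1201 higher and 863 lower with MYBtr. They held 1169 of the 1383 genes called against eGFP (84.5% of these and 56.6% of those called against QKItr), all in the same direction, and the 2 comparisons share the MYBtr arrays. Prune2 stood at a mean of 9.16 with MYBtr and 5.15 with QKItr, Kit at 8.60 and 5.73, and Fbxo32 at 6.65 and 8.83. Of the named genes called in both, the largest differences against QKItr were those of Mup6 (4.31), Prune2 (4.01) and Sema3c (3.85) upward and of Agt (-2.42), Xylt1 (-2.30) and Ttyh1 (-2.27) downward. Qk differed by -0.53 between MYBtr and QKItr and was not called (adjusted p = 0.059).

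Against the fusions no gene was called. The limma test of MYBtr against MYBQKI5 gave 1926 genes with an unadjusted p under 0.05 and none after adjustment, and that against MYBQKI6 gave 1437 and none. The lowest limma adjusted p was 0.058 against MYBQKI5, just over the threshold, and 0.43 against MYBQKI6. The median half-width of the 95% confidence intervals was 0.30. Prune2 was at 9.16 with MYBtr, 7.96 with MYBQKI5 and 8.70 with MYBQKI6, and its difference from MYBQKI5 was 1.21 (95% confidence interval 0.74 to 1.67, adjusted p = 0.12). Cdk6 differed by 0.77 (0.34 to 1.20) from MYBQKI5 and by 0.40 (-0.03 to 0.82) from MYBQKI6, and Kit by 0.41 (0.02 to 0.80) and 0.16 (-0.23 to 0.56). None of these passed the test, and the genes were chosen for their values on the same MYBtr arrays, so the sign of these estimates is not independent. Leaving out the MYBtr array of pool 3 gave 21 calls against MYBQKI5 and none against MYBQKI6, and the other settings gave at most 5 and none.

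**Figure D5:**
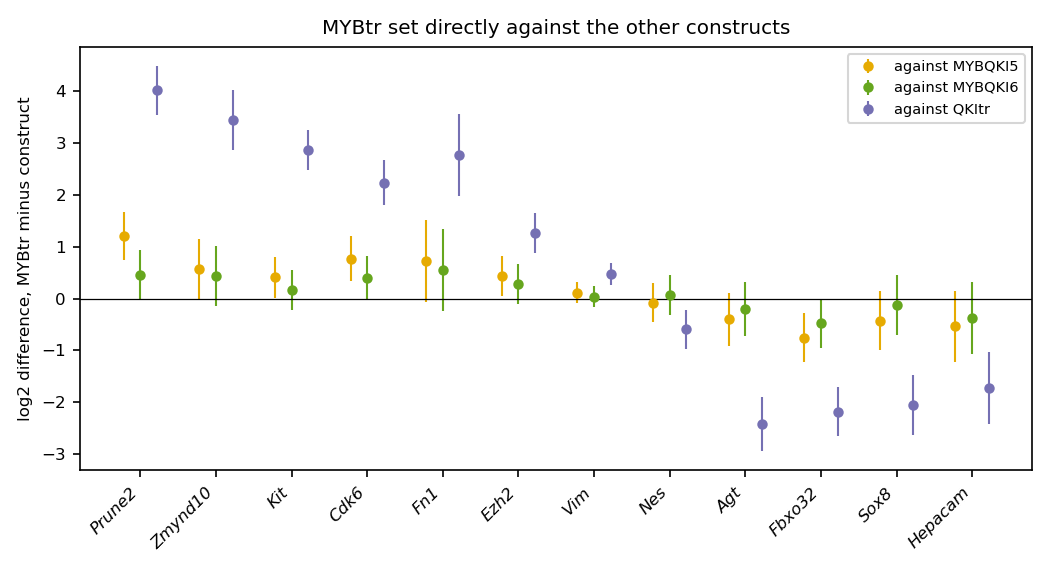
Log2 difference (y) between MYBtr and MYBQKI5, MYBQKI6 or QKItr for 12 genes named against eGFP; points are limma estimates over 3 pools and bars their 95% confidence intervals. Differences from QKItr reach 4.01 for Prune2, while those from the fusions lie nearer 0, with 1.21 for Prune2 against MYBQKI5 the widest shown.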

How the data were processed

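RNA of mouse neural stem cells was hybridised to Affymetrix arrays, per the labels' protocols. Values are log2 signals per probe set as deposited by the authors in the series' value table, and their background correction and normalization are not given in the sources used here. Probe sets with 1 gene symbol (233753 of 269751) were averaged to 23152 genes, with symbols updated through RefSeq. The 2 eGFP repeats of a pool were averaged, and group and pool were fitted over 15 columns (5 groups, 3 pools) with limma 3.58.1 in R 4.3.3 with the package data.table (version 1.17.8), leaving 8 residual degrees of freedom and a prior of 5.905. The other constructs share in the estimate of the spread. The threshold for a call was 0.05 after Benjamini-Hochberg adjustment over all genes. Tables and figures used Python 3.11.15, pandas 2.3.3, numpy 2.4.6 and matplotlib 3.10.9.

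The study compares constructs within numbered pools. Deviations from group means correlated at 0.31 to 0.72 in all 30 pairs of columns from the same pool (median 0.53), and at a median of -0.23 in the other 60 pairs, so pool was kept as a block. MYBtr and eGFP of the same pool correlated at 0.31 to 0.62.

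The text names Myb and Qk, the 12 largest called rises and falls whose higher group mean is above the median gene, the 8 most abundant calls under 2-fold each way, up to 6 calls each way and 3 uncalled bright genes per set, up to 6 genes each way for each construct, and defining markers. Predicted, clone and RIKEN names were left out. Genes named for size or abundance also had to move the same way in 3 of 3 pools. The members and lists were chosen with earlier results of these data known. Families chosen by symbol pattern can include a gene that is not a member. The fit was tested on simulated data. Alternatives were no pool term, 6 columns, a random pool block, other probe set summaries, a filter on dim genes, 2 normalizations, single eGFP repeats, a variance trend and leaving out each pool's array.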

Additional observations from a re-analysis of the deposited data

Results flagged for a closer look

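In 7 of the 262 named genes tested, 1 of the 6 eGFP arrays stood apart from the others. That is 2.67% of these genes, and the cut-off used is one that chance passes in about 1 of 20 groups of 6 independent values. The 6 arrays are 2 repeats of each of 3 pools and so are not independent, and that rate need not hold here. Aif1 read 3.258 on repeat 1 of pool 2, below 3.675 to 3.899 on the other arrays, and Ackr3 read 4.917 on the same array against 5.343 to 5.548. Cdkn1a was highest there, at 10.54 against 10.32 to 10.38. On repeat 2 of pool 2, Foxj1 read 6.335 against 5.903 to 6.059 and Dll4 read 4.235 against 4.714 to 4.944. In pool 1, Mup6 read 3.136 on repeat 2 against 1.863 to 2.2, and Sox6 read 7.984 on repeat 1 against 8.26 to 8.403.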

How the results depend on the processing

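Without the replicate block 317 genes were called (208 higher, 109 lower), all among the 1383. With the MYBtr and eGFP columns alone, and the block, 772 were called (463 and 309), with the brightest probe set per gene 483 (306 and 177) and with the median probe set 739 (454 and 285). The counts with 1 replicate left out ran from 566 to 1471 in all, from 343 to 854 higher and from 223 to 617 lower. Under the other 7 alternatives these counts stayed within 1.5 times the reported ones. Against MYBQKI5 a random block gave 5 calls, the filter on dim genes 1, a variance trend 1 and leaving out a replicate 0 to 21, and against MYBQKI6 there were 0 throughout. Against QKItr 467 were called without the block, 869 by the brightest and 1248 by the median probe set, and 895 to 2117 with a replicate left out. By the brightest probe set the difference changed sign for Oas2 (-0.078), Fgf5 (-0.41), Itga3 (-0.16), Itga9 (-0.070), Gabra2 (0.12), Ada (-0.21) and Slc17a8 (-0.24). The cause of these shifts was not tested. Of 229 called genes followed by name, 47 kept their call in all 17 alternatives, 156 lost it without the block and 130 by the brightest probe set. Of 1564 recomputed medians of lists and families, 155 moved by more than their spread over pools. Dim genes limit what can be seen: 112 of the 1383 calls lay at or below the median gene.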
